A study of Mus musculus with 8 samples.

Results

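The genes described are 5 STAT transcription factors (Stat3, Stat4, Stat5a, Stat5b and Stat6), the kinase Jak2, and 4 inhibitors that cytokine signals switch on (Socs1, Socs2, Socs3 and Cish). They were chosen by symbol: every array probe whose accession maps to 1 of these 10 symbols was taken, whatever its signal. This gave 16 probes of the 55681 on the array and 10 of the 24148 genes or accessions that were tested. All 16 probes passed the filter on dim signal, so no member was lost; the probe of Stat4 was well above background on 6 of the 8 arrays and every other member probe on all 8. Stat3 and Stat5b had 2 probes each, Stat6 and Socs2 had 3 each, and the other members had 1 probe each.

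Cytokine receptors of this kind have no enzyme of their own. When a cytokine binds, the JAK kinases attached to the receptor tails phosphorylate STAT proteins, which pair up, enter the nucleus and switch on target genes. Among those targets are the SOCS genes and Cish, whose proteins bind the receptor or the kinase and damp the same signal, so their RNA is a common readout of STAT activity. In dendritic cells the route carries signals that set development, survival and maturation, among them GM-CSF through Jak2 and Stat5 and interleukin-12 through Stat4. RNA levels do not measure the phosphorylation that activates a STAT.

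The study concerned CD40 in the maturation of thymic dendritic cells and in regulatory T cell development, and its design compared 4 sorted subsets with each other. Each of 4 groups had 2 Agilent arrays of 1 colour (Cy3), hybridised with RNA of thymic dendritic cells from mice. The groups were Sirpa-positive immature (replicates 3 and 5), Sirpa-positive mature (1 and 6), Sirpa-negative immature (4 and 7) and Sirpa-negative mature (2 and 8) cells, numbered as in the sample titles. The labels give no strain, age, genotype, treatment or further sorting marker, no group is named as treated, and whether the 2 arrays of a group stem from different mice is not said, so the p-values reflect the spread among these samples alone, and that spread may be technical.

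The 75th percentile of the processed signal lay between 147 and 313 intensity units per array, 52.9% to 65.5% of the spots on an array were well above background, and 0 spots were saturated. The arrays lay in 2 rows of a slide, and each row held 1 array of every group. The labelled markers followed the groups. Between the subsets Sirpa was 114-fold higher on the positive side among immature and 28.3-fold among mature cells. Maturation raised Ccr7, the chemokine receptor of migrating dendritic cells, 71.7-fold in the Sirpa-positive and 51.5-fold in the Sirpa-negative subset, and Cd40 4.46-fold and 8.22-fold. All 8 general dendritic cell markers were well above background on each of the 8 arrays.

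The promoters of the STAT-induced inhibitors were read for the letters that STAT dimers bind, TTC and GAA with 3 bases between them (TTCNNNGAA). RefSeq promoter windows of build GRCm38.p6 matched 9 of the 10 members, all but Socs2. These were 12 windows of 300 bases that run from 250 bases before a transcript start to 50 after it. The motif reads the same on both strands, so each match counts for both. Of the 12 windows, 2 held it, 1 of Cish and 1 of Socs3, against 8.3% of all 32851 windows. Cish had 2 matches, which 0.457% of all windows reached. The wider spacing that Stat6 also accepts, TTCNNNNGAA, was in 0 of the 12 windows and in 6.95% of all. The 2 windows that hold a match are shown here, and whether a match bears on a difference between groups was not tested. Cish is shown over chr9:107296409-107296678 on the plus strand, from 250 bases before the start to the end of its second match, and Socs3 over chr11:117969367-117969616 on the minus strand, the 250 bases before the start. Both read 5′ to 3′, with the matches in capitals.
Cish: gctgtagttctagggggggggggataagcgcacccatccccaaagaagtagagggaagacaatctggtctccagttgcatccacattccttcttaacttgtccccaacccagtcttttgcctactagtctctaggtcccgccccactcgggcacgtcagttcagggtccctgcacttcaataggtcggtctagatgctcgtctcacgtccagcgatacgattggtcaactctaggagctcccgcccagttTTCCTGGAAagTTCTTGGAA
Socs3: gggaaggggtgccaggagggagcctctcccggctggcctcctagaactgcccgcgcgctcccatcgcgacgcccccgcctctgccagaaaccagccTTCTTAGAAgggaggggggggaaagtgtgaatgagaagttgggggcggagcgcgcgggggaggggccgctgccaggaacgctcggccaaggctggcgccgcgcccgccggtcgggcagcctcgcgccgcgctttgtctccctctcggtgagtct
The Cish matches, TTCCTGGAA and TTCTTGGAA, begin at the start site and 11 bases after it. The Socs3 match, TTCTTAGAA, begins 154 bases before the start. A match is a description of the letters, and no binding was measured.

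Every member that passed the test for maturation was higher in mature cells, and every member that passed between the subsets of the same state was higher in Sirpa-positive cells. Levels are given as log2 of the processed signal relative to the array's 75th percentile, so 0 is the 75th percentile. Differences are log2 differences ± SE from a limma fit over all 8 arrays (n = 2 arrays per group), and a member passed the test where its Benjamini-Hochberg adjusted p was under 0.05. In Sirpa-positive cells 4 of 10 members rose with maturation (Stat3, Stat4, Stat5a and Socs2), against 4.35% of all genes, and 0 fell, against 2.54%. In Sirpa-negative cells 6 rose (the same 4 with Stat6 and Jak2), against 9.22% of all genes, and 0 fell, against 7.24%. Sirpa-positive cells had higher Socs3 and Cish than Sirpa-negative cells among immature cells, 2 of 10 members against 7.23% of all genes, and 0 were lower, against 4.4%. Among mature cells Socs3 alone passed, 1 of 10 higher against 3.37% and 0 lower against 2.1%. The median difference over the 10 members was 0.70 and 0.996 for maturation in Sirpa-positive and Sirpa-negative cells, where the medians of all genes were 0.03 and -0.01. For the subsets it was 0.90 among immature and -0.02 among mature cells, with -0.11 and -0.07 over all genes.

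**Figure D1:**
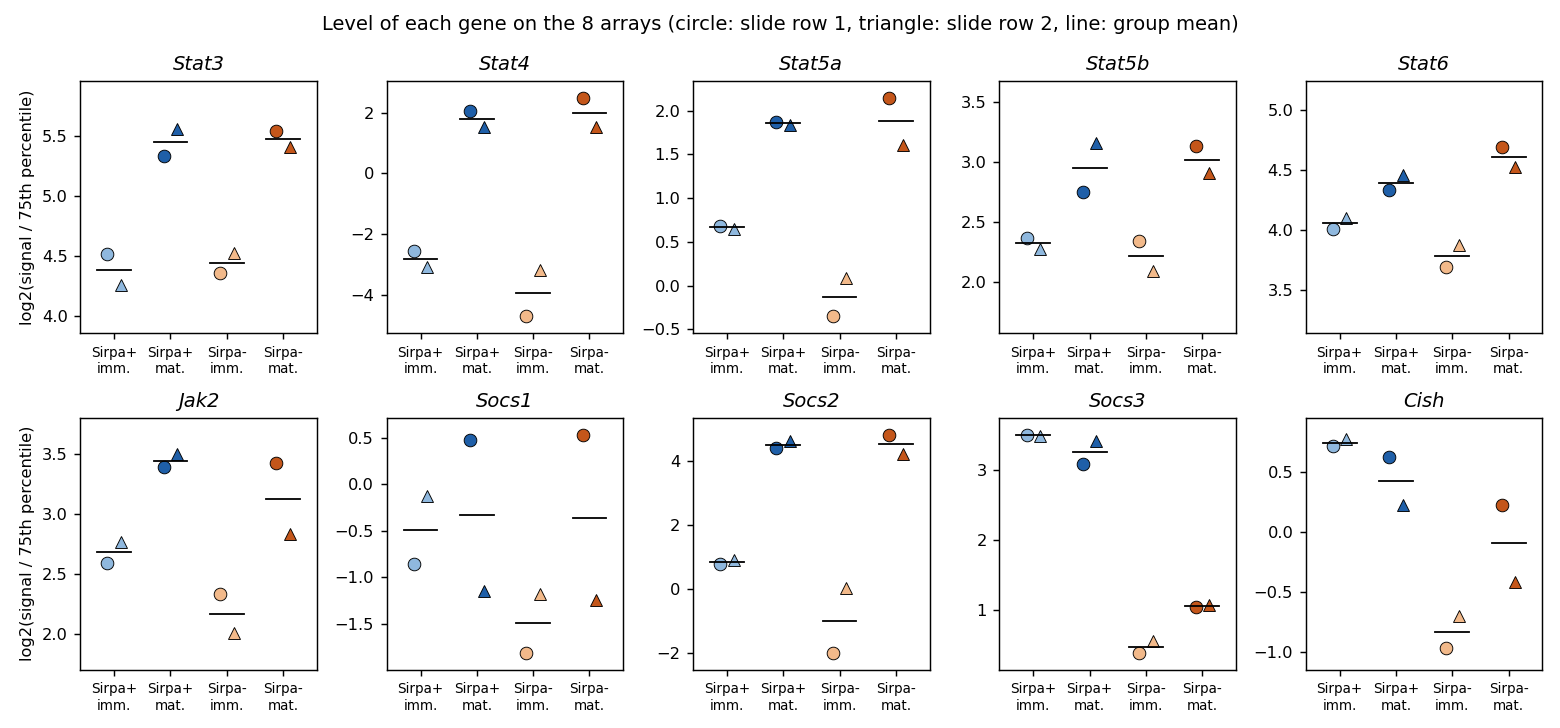
Level of each gene on each of the 8 arrays (y axis, log2 of signal over the array's 75th percentile; each panel has its own range), by group, with a line at the group mean; circles are arrays of slide row 1 and triangles of row 2. Stat4 and Socs2 are high on all 4 mature arrays and low on all 4 immature arrays, while Socs3 is high on all 4 Sirpa-positive arrays and low on all 4 Sirpa-negative arrays.

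Stat4, the STAT that answers interleukin-12, was not well above background in Sirpa-negative immature cells and was well above it in the other groups. Its level was -3.08 and -2.57 in Sirpa-positive immature cells, 2.04 and 1.54 in Sirpa-positive mature cells, -3.17 and -4.71 in Sirpa-negative immature cells, and 2.49 and 1.52 in Sirpa-negative mature cells. All 4 mature arrays thus lay above all 4 immature arrays with a wide gap. In Sirpa-positive cells it rose by 4.62 ± 0.543 with maturation, 24.5-fold (adjusted p = 0.00508). In Sirpa-negative cells it rose by 5.94 ± 0.543 (adjusted p = 0.000978), and since neither Sirpa-negative immature array had its only probe well above background, this is given as at least 56.4-fold. The immature arrays of the 2 subsets did not overlap, but their difference of 1.11 did not pass (adjusted p = 0.261). Among mature cells the subsets differed by -0.21 with a 95% interval from -1.49 to 1.06. Both maturation differences passed in all 20 alternative settings that gave a value, with adjusted p up to 0.0426 and 0.0126. The largest departure was 3.66 in place of 5.94 in Sirpa-negative cells with normexp background correction followed by quantile normalization. That joint setting is called normexp correction below.

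T cells and natural killer cells also express Stat4, so their markers are given beside it. Of 21 thymocyte and T cell markers, 7 rose with maturation in Sirpa-positive cells and 14 in Sirpa-negative cells, against 4.35% and 9.22% of all genes. None of the 21 fell in either, against 2.54% and 7.24%. Their summed level, in units of the 75th percentile, was 46.8 to 52.5 in Sirpa-positive immature, 67.7 to 71.3 in Sirpa-positive mature, 33.4 to 46.8 in Sirpa-negative immature and 82.4 to 105 in Sirpa-negative mature cells. Single genes carried much of these sums. Cd4 and Cd8a, which dendritic cells express too, made up 27.8 to 35.6, 23.4 to 24.7, 18.2 to 31.1 and 27.3 to 42.9 units in the same order of groups. The other 19 markers, a split made after the values were seen, summed to 17.0 to 19.01, 42.9 to 47.8, 15.2 to 15.7 and 55.1 to 62.1, higher in the mature cells of both subsets. Most of the 21 markers were above background in every group, at 18 to 21 of 21 on both arrays of a group, and Rag2 was not well above background on either Sirpa-positive immature array. Their part in the rise of Stat4 and of the other members was not tested. Of 7 natural killer cell markers tested, 0 passed for maturation in either subset, and Gzmb and Klrb1c were well above background on 0 of the 8 arrays. The summed level of the 10 listed natural killer markers was 10.01 to 10.8, 12.8 to 14.2, 12.3 to 12.9 and 9.27 to 17.1 in the same order of groups. Tbx21 alone made up 8.24 to 9.04, 10.69 to 12.01, 9.76 to 9.77 and 6.80 to 14.7 of it, and the other 9 markers 1.75 to 1.77, 2.12 to 2.15, 2.53 to 3.16 and 2.38 to 2.47. In a bulk sample, fewer cells of a type and less RNA per cell cannot be told apart.

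Stat5a, which with Stat5b carries signals of GM-CSF, interleukin-2, interleukin-7 and thymic stromal lymphopoietin, rose in both subsets. Its level was 0.65 and 0.69 in Sirpa-positive immature, 1.87 and 1.84 in Sirpa-positive mature, 0.09 and -0.35 in Sirpa-negative immature, and 2.14 and 1.61 in Sirpa-negative mature cells. The mature arrays of both subsets shared 1 range, and Sirpa-negative immature cells were lowest. The rise was 1.19 ± 0.255 (2.28-fold, adjusted p = 0.0373) in Sirpa-positive and 2.01 ± 0.255 (4.02-fold, adjusted p = 0.00305) in Sirpa-negative cells. The lead of Sirpa-positive immature cells, 0.79, did not pass (adjusted p = 0.101) except with trended and robust variances (0.0388). That joint setting is called trended variances below. The Sirpa-negative rise passed in all 21 alternatives. The Sirpa-positive rise did not when any of its own 4 arrays was left out (adjusted p 0.118 without replicate 1, 0.174 without 5, 0.183 without 3 and 0.143 without 6), with the slide row as a block (0.0760) or with dim probes kept (0.137).

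Stat5b, the close paralogue of Stat5a, did not pass on the probe that stands for it, and its Sirpa-negative difference lay close to the threshold. Its level was 2.28 and 2.37 in Sirpa-positive immature, 2.75 and 3.15 in Sirpa-positive mature, 2.09 and 2.34 in Sirpa-negative immature, and 3.13 and 2.91 in Sirpa-negative mature cells. The mature arrays lay above the immature arrays in each subset. The differences were 0.63 ± 0.227 (adjusted p = 0.169) in Sirpa-positive and 0.80 ± 0.227 (adjusted p = 0.0532) in Sirpa-negative cells. Its second, dimmer probe gave 1.11 ± 0.245 in Sirpa-negative cells and passed when each probe was tested singly (adjusted p = 0.0240), and 0.42 in Sirpa-positive cells, which did not (adjusted p = 0.408). The Sirpa-negative difference passed in 7 of 21 alternatives: with normexp correction (adjusted p = 0.0156), quantile normalization (0.0396), the authors' values (0.0256), a filter that asks for signal on all arrays (0.0313), the mean of its probes (0.0227, with a difference of 0.96), a block for the title-number set (0.0495) and trended variances (0.0156). The Sirpa-positive difference passed with normexp correction (0.04785).

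Stat3, which relays signals of the interleukin-6 and interleukin-10 families and of Flt3 ligand, rose in both subsets. Its level was 4.25 and 4.51 in Sirpa-positive immature, 5.33 and 5.56 in Sirpa-positive mature, 4.52 and 4.35 in Sirpa-negative immature, and 5.54 and 5.40 in Sirpa-negative mature cells. Immature and mature arrays formed separate ranges, and within each state the subsets overlapped. The rise was 1.06 ± 0.208 (2.08-fold, adjusted p = 0.0282) in Sirpa-positive and 1.03 ± 0.208 (2.05-fold, adjusted p = 0.0167) in Sirpa-negative cells, and the difference between the rises was 0.03 with a 95% interval from -0.67 to 0.72. Its second probe, tested singly, rose by 0.99 and 0.96 and passed in both (adjusted p = 0.0432 and 0.0269). The Sirpa-positive call was lost without replicate 1 (adjusted p = 0.0634), 5 (0.107), 3 (0.180) or 6 (0.139), with the slide row as a block (0.0664), with the compared arrays alone (0.0608) and with dim probes kept (0.117), and the Sirpa-negative call without replicate 7 (0.0830), 2 (0.0821) or 4 (0.0583), with the compared arrays alone (0.0571) and with dim probes kept (0.0690).

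Stat6, the STAT of interleukin-4 and interleukin-13, passed in Sirpa-negative cells. Its level was 4.10 and 4.01 in Sirpa-positive immature, 4.33 and 4.46 in Sirpa-positive mature, 3.88 and 3.69 in Sirpa-negative immature, and 4.69 and 4.52 in Sirpa-negative mature cells. On this probe all 4 groups lay in separate ranges, with Sirpa-negative immature lowest and Sirpa-negative mature highest. On its other 2 probes the immature arrays of the subsets overlapped. The difference was 0.82 ± 0.195 (1.77-fold, adjusted p = 0.0296) in Sirpa-negative and 0.34 ± 0.195 (adjusted p = 0.4003) in Sirpa-positive cells. The difference between these effects was -0.48 and did not pass (adjusted p = 0.763). Of its other 2 probes, 1 passed in Sirpa-negative cells when tested singly (0.88, adjusted p = 0.0333) and 1 did not (0.60, adjusted p = 0.0955). The Sirpa-negative call held in 11 of 21 alternatives; it was lost without replicate 7 (adjusted p = 0.137), 2 (0.128), 8 (0.0590) or 4 (0.0835) of its own groups, without replicate 3 or 5 of the other subset (0.0622 each), and with the slide row as a block (0.0644), median scaling (0.0567), the compared arrays alone (0.0956) or dim probes kept (0.107).

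Jak2, the kinase at the receptors for GM-CSF, interleukin-12 and interferon gamma, had a like pattern. Its level was 2.77 and 2.59 in Sirpa-positive immature, 3.39 and 3.50 in Sirpa-positive mature, 2.01 and 2.33 in Sirpa-negative immature, and 3.42 and 2.83 in Sirpa-negative mature cells. Mature arrays lay above immature arrays within each subset. The difference was 0.96 ± 0.257 (1.94-fold, adjusted p = 0.0448) in Sirpa-negative and 0.76 ± 0.257 (adjusted p = 0.143) in Sirpa-positive cells, and the difference between these effects was -0.19 (adjusted p = 0.910). The Sirpa-positive difference passed with normexp correction (adjusted p = 0.0457). The Sirpa-negative call held in 9 of 21 alternatives. It was lost without any of replicates 1, 3, 4, 5, 6, 7 and 2 (adjusted p from 0.0654 to 0.195), with a block for the slide row (0.0713) or for the title-number set (0.0501), and with median scaling (0.0854), the compared arrays alone (0.121) or dim probes kept (0.137).

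**Figure D2:**
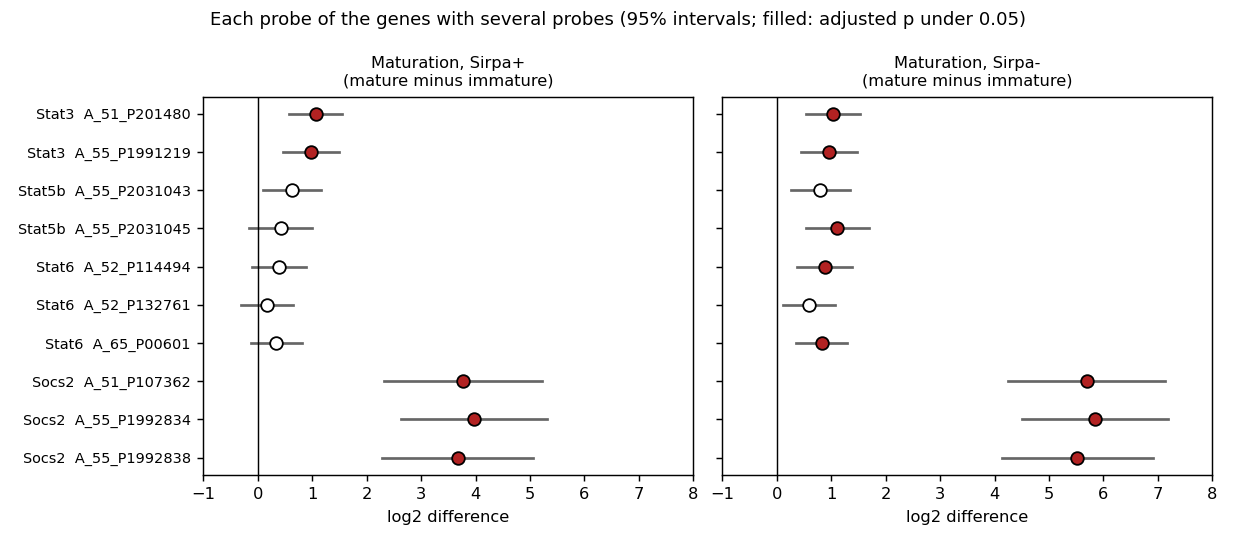
Log2 difference with maturation (x axis, mature minus immature, with 95% intervals) for each probe of Stat3, Stat5b, Stat6 and Socs2, fitted singly in Sirpa-positive (left) and Sirpa-negative cells (right); filled points have an adjusted p under 0.05. The probes of Stat3 and of Socs2 agree on both sides, while Stat5b and Stat6 each have probes on both sides of the threshold in Sirpa-negative cells.

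Socs2, an inhibitor best known for restraining growth hormone signals, spanned 5.52 between its lowest and highest group means, and 5.73 and 6.02 on its other 2 probes. Its level was 0.91 and 0.80 in Sirpa-positive immature, 4.41 and 4.63 in Sirpa-positive mature, 0.02 and -1.9996 in Sirpa-negative immature, and 4.84 and 4.23 in Sirpa-negative mature cells. The mature arrays of both subsets shared 1 range, and the 2 Sirpa-negative immature arrays stood far apart from each other. Socs2 rose by 3.67 ± 0.586 (12.7-fold, adjusted p = 0.0138) in Sirpa-positive and by 5.52 ± 0.586 (46.0-fold, adjusted p = 0.00164) in Sirpa-negative cells. Its other 2 probes gave 3.77 and 3.97 in Sirpa-positive and 5.69 and 5.84 in Sirpa-negative cells, and both passed singly in both. Without replicate 7, the lower Sirpa-negative immature array, the Sirpa-negative rise was 4.51, and without replicate 4 it was 6.53, and it passed in all 21 alternatives. The Sirpa-positive rise kept its size but not its call without replicate 1 (adjusted p = 0.0567), 5 (0.0908), 3 (0.0832) or 6 (0.0899), or with dim probes kept (0.0642). Sirpa-positive immature cells stood 1.84 above Sirpa-negative immature cells, which did not pass (adjusted p = 0.0985) and did pass in 4 alternatives: normexp correction (0.0251), the authors' values (0.0280), trended variances (0.0250) and without replicate 4 (0.00361).

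Socs3, the inhibitor that binds the shared gp130 chain of interleukin-6 type receptors, was higher on the Sirpa-positive side in both states. Its level was 3.49 and 3.51 in Sirpa-positive immature, 3.09 and 3.42 in Sirpa-positive mature, 0.56 and 0.39 in Sirpa-negative immature, and 1.04 and 1.07 in Sirpa-negative mature cells. All 4 Sirpa-positive arrays lay above all 4 Sirpa-negative arrays. The subset difference was 3.02 ± 0.203 among immature cells (8.13-fold, adjusted p = 0.000151) and 2.20 ± 0.203 among mature cells (4.59-fold, adjusted p = 0.00116), and both passed in all 21 alternatives. Within the slide rows it was 3.12 and 2.93 among immature and 2.05 and 2.35 among mature cells. With maturation Socs3 differed by -0.24 (adjusted p = 0.597) in Sirpa-positive and by 0.58 (adjusted p = 0.101) in Sirpa-negative cells, which passed with trended variances (0.0465).

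Cish, the founding member of the SOCS family and a classic Stat5 target, was higher in Sirpa-positive cells among immature cells. Its level was 0.77 and 0.71 in Sirpa-positive immature, 0.63 and 0.23 in Sirpa-positive mature, -0.70 and -0.97 in Sirpa-negative immature, and 0.23 and -0.41 in Sirpa-negative mature cells. The immature subsets lay far apart, while the mature subsets touched, since replicate 6 of the Sirpa-positive and replicate 2 of the Sirpa-negative mature cells both stood at 0.23. The subset difference was 1.57 ± 0.276 (2.98-fold, adjusted p = 0.0105) among immature and 0.52 ± 0.276 (adjusted p = 0.432) among mature cells. With maturation it differed by -0.32 (adjusted p = 0.617) in Sirpa-positive and 0.74 (adjusted p = 0.122) in Sirpa-negative cells. The immature call was lost without replicate 7 (adjusted p = 0.0594), 5 (0.0605) or 3 (0.0822) and held in the other 18 of 21 alternatives.

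Macrophages express Socs3 too, so their markers are given beside these subset differences. Of the 9 macrophage markers on the array, 9 were higher on the Sirpa-positive side among immature cells, against 7.23% of all genes. Among mature cells 6 were, against 3.37%. Their summed level was 437 to 577 in Sirpa-positive immature, 357 to 376 in Sirpa-positive mature, 3.09 to 3.69 in Sirpa-negative immature and 6.43 to 9.56 in Sirpa-negative mature cells. C1qb and C1qa carried most of the Sirpa-positive sums. In Sirpa-positive immature cells C1qb had log2 levels of 7.97 and 7.61 and C1qa 7.71 and 7.40, while the other markers stood at 5.73 or lower. On none of the Sirpa-negative arrays was C1qc well above background, nor was Mertk on the Sirpa-negative immature arrays. Both passed the filter through the Sirpa-positive groups, and the 9 counted among immature cells include them. The part of such cells in the levels of Socs3 and Cish was not tested. Markers of type 2 dendritic cells, the lineage that carries Sirpa, were higher in Sirpa-positive cells for 7 of 8 (immature) and 5 of 8 (mature). Sirpa, by which the groups are named, is itself 1 of these 8, so its part in the counts was fixed by the sort. Markers of type 1 dendritic cells were lower for 7 of 7 and 5 of 7. Of the B cell list 5 of 8 were tested and 1, 1, 2 and 1 were higher, and 1, 0, 0 and 0 lower, for the immature subsets, the mature subsets, Sirpa-positive and Sirpa-negative maturation. In the same order, 3, 2, 1 and 2 of 8 plasmacytoid markers were higher and 1, 0, 1 and 2 lower. For 5 epithelial markers the counts were 2, 0, 0 and 1 higher and 0, 0, 1 and 0 lower. Of all genes 7.23%, 3.37%, 4.35% and 9.22% were higher and 4.4%, 2.1%, 2.54% and 7.24% lower, in that order.

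Socs1, the main brake on interferon gamma signals, passed in no comparison. Its level was -0.12 and -0.86 in Sirpa-positive immature, 0.48 and -1.15 in Sirpa-positive mature, -1.18 and -1.81 in Sirpa-negative immature, and 0.54 and -1.25 in Sirpa-negative mature cells. In each group the array with a title number from 1 to 4 was the higher of the pair. The mature groups split most, and replicates 6 and 8 lay below both Sirpa-positive immature arrays. The maturation difference was 0.16 with a 95% interval from -1.50 to 1.82 in Sirpa-positive and 1.14 with an interval from -0.52 to 2.80 in Sirpa-negative cells, and within slide rows 1 and 2 it was 1.34 and -1.02, and 2.35 and -0.07. With a block for the title-number set, the Sirpa-negative adjusted p went from 0.336 to 0.0664, the lowest over its 21 alternatives. The labels do not say what the sets are.

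**Figure D3:**
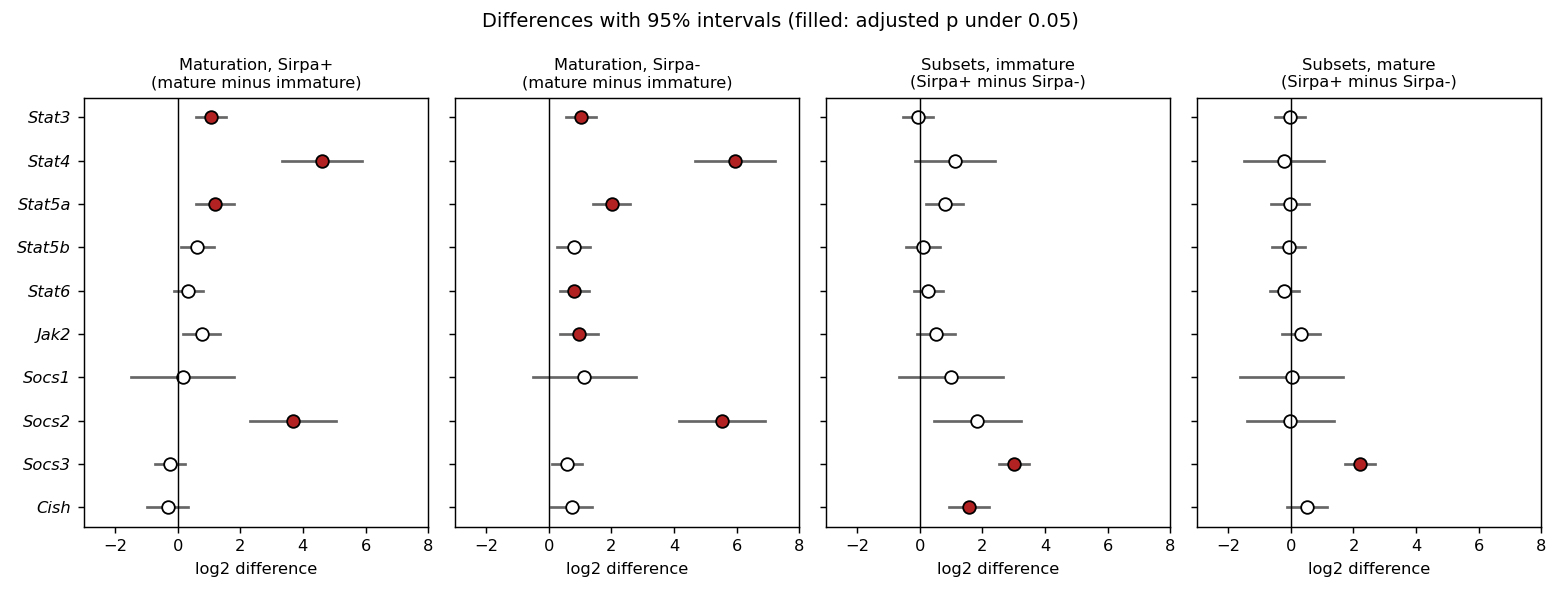
Log2 difference (x axis) with its 95% interval for each member in the maturation comparison of each subset (mature minus immature) and in the subset comparison of each state (Sirpa-positive minus Sirpa-negative); filled points have an adjusted p under 0.05. The filled points of the maturation panels lie right of 0, and Socs3 is filled in both subset panels.

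Within the slide rows, taken in the order row 1 and row 2, the differences that passed had these sizes. In Sirpa-positive maturation Stat3 differed by 0.82 and 1.30, Stat4 by 4.62 and 4.62, Stat5a by 1.19 and 1.19 and Socs2 by 3.62 and 3.72. In Sirpa-negative maturation the row 1 difference was the larger for the 5 members that passed and were well above background on all arrays: 1.19 and 0.88 for Stat3, 2.49 and 1.52 for Stat5a, 0.997 and 0.65 for Stat6, 1.09 and 0.82 for Jak2, and 6.84 and 4.21 for Socs2. Stat4 has no size there, since its probe was not well above background on the Sirpa-negative immature array of either row. The Cish difference between immature subsets was 1.68 and 1.47. Row 1 arrays had more spots well above background (61.9% to 65.5%) than row 2 arrays (52.9% to 57.9%), and the part of the row in these sizes was not tested.

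The difference between the 2 maturation effects was tested for each member, and 0 of 10 passed, with the lowest adjusted p at 0.491, and 0 of 10 passed under each alternative that gave a value. Over all genes 0 of 24148 passed (0%), and 1945 (8.05%) had an unadjusted p under 0.05. Among the members 2 did, Socs3 and Cish, both in the direction of a larger maturation difference in Sirpa-negative cells. For Socs3 the difference between effects was -0.82 ± 0.288 (unadjusted p = 0.0232, adjusted p = 0.491), and for Cish -1.05 ± 0.391 (unadjusted p = 0.0299, adjusted p = 0.523). For Stat5a it was -0.82 with a 95% interval from -1.66 to 0.03, and for Socs2 -1.85 with an interval from -3.80 to 0.09. The calls that Stat6 and Jak2 had in Sirpa-negative cells and lacked in Sirpa-positive cells were therefore not shown to differ between the subsets. The 2 maturation comparisons share no array with each other, while each shares its arrays with the subset comparisons.

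The order of the 4 group means followed 2 forms. In Stat3, Stat4, Stat5a, Stat5b, Stat6 and Socs2 it ran from Sirpa-negative mature through Sirpa-positive mature to the immature groups, and in Jak2 and Socs1 the 2 mature groups changed places. In Socs3 and Cish it ran from Sirpa-positive immature through Sirpa-positive mature and Sirpa-negative mature to Sirpa-negative immature. Neighbours in the order differed beyond their spread at a single step each in Stat3 (Sirpa-positive mature over Sirpa-negative immature, 1.01), Stat4, Stat5a and Socs2 (Sirpa-positive mature over Sirpa-positive immature) and Socs3 (Sirpa-positive mature over Sirpa-negative mature). In Stat5b, Stat6, Jak2, Socs1 and Cish no step between neighbours passed. Across non-neighbours, Jak2 was 1.28 higher in Sirpa-positive mature than in Sirpa-negative immature cells (adjusted p = 0.0123) and Cish 1.26 higher (adjusted p = 0.0175). The Jak2 call was lost without replicate 6 (adjusted p = 0.0567) or 4 (0.0708), the Cish call without replicate 1 (0.0938) or 7 (0.0889) and with dim probes kept (0.0635), and the Stat3 call without replicate 7 (0.0760) or 6 (0.0646) and with dim probes kept (0.0561). Between these groups 7 of 10 members were higher, against 11% of all genes, and 0 lower, against 9.6%. Between Sirpa-negative mature and Sirpa-positive immature cells 4 were higher, against 9.92%, and Socs3 was lower by 2.44, against 9.01%. There the Stat3 call was lost without replicate 2 (adjusted p = 0.0549) or 3 (0.0878), and the Stat5a call without replicate 2 (0.0772), 5 (0.0796) or 3 (0.0919) and with dim probes kept (0.0584).

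Correlations between members were taken over the 8 arrays, which share their groups and their hybridisation. The correlation between Stat5a and Socs2 was 0.990, between Stat4 and Socs2 0.985 and between Stat4 and Stat5a 0.979 (Pearson, n = 8 arrays). Between Socs3 and Cish it was 0.887. Between Stat3 and Socs3 it was 0.03 and between Stat5a and Cish 0.494. Socs1 correlated most with Cish (0.707), whose order of group means it did not share, and less with Stat5a (0.626) and Jak2 (0.617). Among 5447 other genes with a range of group means of at least 1, the 3 most like Stat4 were Gpc1 (0.996), Rasl10b (0.995) and Ptpn3 (0.995). The 3 most like Socs2 were Mreg (0.996), Ksr1 (0.995) and Ndnf (0.995), and for Stat5a they were Gucd1 (0.996), Pcbp4 (0.995) and Foxp4 (0.995). For Socs3 they were Ctsd (0.997), the lysosomal protease cathepsin D, Ifit3 (0.996), an interferon-induced gene, and Capg (0.995), an actin-capping protein. With 4 groups of 2 arrays, any gene with the same contrast between groups scores near 1.

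The rest of the pathway was read from lists of genes by role. For the counts below, 4.35% of all genes rose and 2.54% fell in Sirpa-positive maturation, and 9.22% and 7.24% in Sirpa-negative maturation. In Sirpa-positive cells 7.23% of all genes were higher and 4.4% lower among immature cells, and 3.37% and 2.1% among mature cells. Of the other STAT, JAK and SOCS genes 8 of 9 were tested. Tyk2 rose 2.00-fold with maturation in Sirpa-positive cells (adjusted p = 0.0405), and Jak3, the kinase of receptors with the common gamma chain, rose 1.83-fold in Sirpa-negative cells (adjusted p = 0.0222). The other 7 in each comparison did not pass and 0 fell, and among immature cells 2 were higher in Sirpa-positive cells and 1 was lower. The list's median difference was 0.24 and 0.14 for maturation, below the members' medians.

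Of 14 other negative regulators, 2 rose in Sirpa-positive cells, against 4.35% of all genes. In Sirpa-negative cells 3 rose and 1 fell, against 9.22% and 7.24%. Cblb, a ubiquitin ligase that limits receptor signals, rose 9.28-fold (adjusted p = 0.000818) and 4.21-fold (adjusted p = 0.00121). Pias3, named as an inhibitor of Stat3, rose 3.46-fold (adjusted p = 0.0262) and 4.85-fold (adjusted p = 0.00594). In Sirpa-negative cells the phosphatase gene Ptpn6 rose 1.87-fold (adjusted p = 0.0384) and Ptpn11 fell by 0.88 on the log2 scale (adjusted p = 0.0495). Among immature cells 2 were higher and 1 lower in Sirpa-positive cells, and among mature cells 1 was higher. The list's median was -0.11 and 0.30 for maturation in the 2 subsets.

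Of 37 receptors that use JAK kinases 34 were tested. With maturation 2 rose and 2 fell in the Sirpa-positive subset, against 4.35% and 2.54% of all genes. In the Sirpa-negative subset 11 rose and 3 fell, against 9.22% and 7.24%. Il2ra, the alpha chain of the interleukin-2 receptor, rose 17.9-fold in Sirpa-positive (adjusted p = 0.00244) and at least 9.03-fold in Sirpa-negative cells (adjusted p = 0.00102), where neither immature array was well above background. Il23r, a chain of the interleukin-23 receptor, was 10.1-fold brighter in mature Sirpa-positive cells, with 1 of 2 immature arrays well above background. It was well above background on 5 of the 8 arrays and passed the filter through groups in which it was high. No p-value is given for it for that reason. The 2 rises counted in Sirpa-positive cells include it, as do the 11 in Sirpa-negative cells. In Sirpa-negative cells Il21r rose 25.7-fold (adjusted p = 0.000547) and Il4ra, which works through Stat6, rose 4.98-fold (adjusted p = 0.000839).

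The 2 receptor genes that fell in Sirpa-positive cells, of 34 tested, were Lifr and Il6ra, both of the interleukin-6 type. Il6st and Il11ra1, of the same type, did not pass there. Lifr fell by 1.59 on the log2 scale (adjusted p = 0.00726) and Il6ra fell by 1.11 (adjusted p = 0.0259). In Sirpa-negative cells Il6ra fell by 1.40 (adjusted p = 0.00607), Ifngr1 fell by 1.34 (adjusted p = 0.00745) and Lifr fell by 0.77 (adjusted p = 0.0474). Lifr and Il6ra are also given between the subsets, a choice made after their values were seen. Sirpa-positive cells had 6.63-fold and 3.74-fold more Lifr among immature (adjusted p = 0.000282) and mature cells (adjusted p = 0.00250), and Il6ra was 1.99-fold (adjusted p = 0.0243) and 2.42-fold higher (adjusted p = 0.0152). Of the 34 receptors, 11 were higher in Sirpa-positive immature cells and 0 lower, and 3 were higher and 1 lower among mature cells. Il27ra, among the 34, was well above background on 5 of the 8 arrays and was brighter on the Sirpa-positive arrays. The list's median was 0.56 among immature and 0.17 among mature cells, and 0.12 and 0.33 for maturation.

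Of 26 ligands 25 were on the array and 8 passed the filter on dim signal, so the values below describe those 8 and not the list. Il15, a cytokine that dendritic cells present to lymphocytes, rose 7.24-fold in Sirpa-positive (adjusted p = 0.00365) and 4.79-fold in Sirpa-negative cells (adjusted p = 0.00393). Ebi3 rose 3.40-fold (adjusted p = 0.00988) in Sirpa-positive cells, and Il6 was at least 2.73-fold brighter in the mature cells of that subset. In Sirpa-negative cells Osm, an interleukin-6 type cytokine, rose at least 3.25-fold (adjusted p = 0.00190). Il13 was at least 2.90-fold brighter in the mature cells of that subset. Il6, Il13 and Lif were well above background on 3 of the 8 arrays each and were brighter on the mature arrays. They thus passed the filter through the groups in which they were high. For that reason no p-value is given for them and no count of rises and falls for the ligands.

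Of 24 genes known as STAT targets, 7 rose and 0 fell in Sirpa-positive cells, against 4.35% and 2.54% of all genes. In Sirpa-negative cells 10 rose and 2 fell, against 9.22% and 7.24%. In Sirpa-positive cells Il2ra, which stands on this list too, Ccnd2 (5.10-fold, adjusted p = 0.00319) and Ccl22 (42.3-fold, adjusted p = 0.00630), a chemokine gene, led the rises. In Sirpa-negative cells the guanylate-binding protein gene Gbp2 rose 38.5-fold (adjusted p = 0.000629), the chemokine gene Ccl17 rose 22.5-fold (adjusted p = 0.000800) and Il4i1, induced by interleukin-4, rose 13.1-fold (adjusted p = 0.000811). There Myc fell by 2.76 on the log2 scale (adjusted p = 0.00385) and Fgl2 fell by 0.87 (adjusted p = 0.0483). Among immature cells 9 were higher and 2 lower in the Sirpa-positive subset, and among mature cells 3 and 1. The medians over the list were 0.27 and 0.36 for maturation, 0.56 among immature and 0.35 among mature cells.

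**Figure D4:**
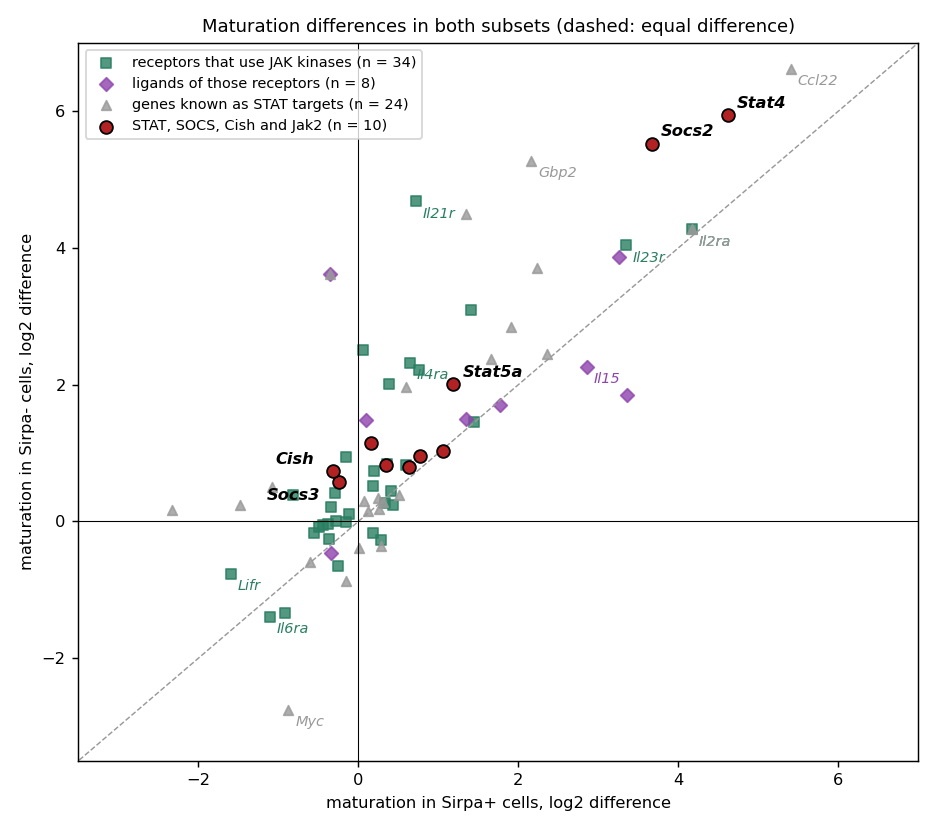
Log2 difference with maturation in Sirpa-positive cells (x axis) against that in Sirpa-negative cells (y axis) for the 10 members (red) and the tested receptors, ligands and STAT targets; the dashed line marks equal differences. Stat4 and Socs2 lie near Il2ra and Ccl22 at the upper right, at 4.62 and 5.94 and at 3.67 and 5.52, while Socs3 and Cish lie left of 0 on the x axis and above 0 on the y axis.

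Among all genes the share of calls that were higher in mature Sirpa-positive cells was 63.2%, with quantile normalization it was 58.83% and with median scaling 55.69%. With normexp correction, which includes quantile normalization, it was 50.35%, with dim probes kept 82.64%, and with an array left out 63.47% to 79.28%. Median scaling moved the median of all genes in Sirpa-negative maturation from -0.01 to -0.12. The maturation differences of Stat3, Stat4, Stat5a, Stat5b, Stat6, Jak2 and Socs2 stayed above 0 in both subsets under every alternative that gave a value.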

How the data were processed

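RNA of 8 samples was measured on 8 arrays of 1 colour (Cy3), 2 per group. The deposited scanner files give intensity per spot. Per the file headers they were made with Feature Extraction 10.7.3.1, while the submitters' processing notes name version 10.5, which was left unresolved. The processed signal is background-subtracted and detrended within an array, per the file headers. The authors' deposited value table appears to be on a log2 scale, judged from its range, with array medians from 5.99 to 6.01. The processing notes name limma, with settings not given in the sources used here.

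On each array 110 to 270 outlier spots were treated as missing, and repeat spots of a probe were averaged. Each log2 signal was taken relative to the 75th percentile of its own array. Probes had to be well above background on the 2 arrays of 1 group or more, which kept 33689 of 55681. Accessions were named through the RefSeq table of GRCm38.p6 (26582 probes with a symbol), and the brightest kept probe stood for each gene (24148 genes or accessions, 13867 with a symbol; 5871 had several probes). The array design names build mm9, so the only coordinates printed are those of the RefSeq promoter windows. The Socs2 promoter is not used here.

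All 8 arrays entered 1 linear model of the 4 group means, with no block, 4 residual and 3.26 prior degrees of freedom (R 4.3.3, limma 3.58.1), which gave two-sided tests of 7 comparisons. The p-values were adjusted by Benjamini-Hochberg over all genes of a comparison. The fit was tested on simulated data. A fold is a bound ("at least N-fold") where the dimmer group had no array with the probe well above background. The dim mean was then taken over arrays, each at its lowest signal well above background or at the probe's own signal, whichever was higher. Precision is limited by how few arrays there are.

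The members, gene lists and naming rule were chosen with earlier results of these data known. The rule names all 10 members, with every probe; for the 4 called members of widest range of group means, the 3 genes most correlated with each; from each pathway list up to 3 called genes with the smallest p per direction in each maturation comparison; and Sirpa, Ccr7 and Cd40 as a check of the labels. In all 21 alternatives were run: other background corrections, scalings, filters, probe rules, blocks, variance models and sources of the values, and each array left out. Normexp correction always came with quantile normalization, and trended variances were always robust too.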

Additional observations from a re-analysis of the deposited data

How the results depend on the processing

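The 10 members gave 70 results over 7 comparisons, of which 25 passed the test, and the alternatives gave 521 values for these 25. Of the 521, 459 passed too, and 0 changed sign. The Stat4 maturation differences, the Stat5a and Socs2 differences in Sirpa-negative cells and the Socs3 subset differences passed in all alternatives that gave a value. Stat4 has no value with probes above background on all 8 arrays, and the difference between the maturation effects has none with the compared arrays alone. The replicate numbers of the labels are not shared between groups, so no pairing follows from them. With title numbers 1 to 4 and 5 to 8 as a replicate block, 2 genes passed for the difference between the maturation effects against 0 without it, members called were 4 and 6 for maturation as before, Jak2 was lost and Stat5b gained in Sirpa-negative cells (adjusted p = 0.0501 and 0.0495), and no other call in the maturation and subset comparisons changed. The number of arrays and, for Stat4, signal over background limit what can be seen; the causes of the changes below were not tested.

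The members called for Sirpa-positive maturation were 1 with dim probes kept, 2 with a slide row block and 1 to 4 with an array left out, at 1 without replicate 1, 3, 5 or 6. For Sirpa-negative maturation they were 3 with dim probes kept, 3 with the compared arrays alone and 3 to 5 with an array left out, at 3 without replicate 2, 4 or 7. Trended variances gave 4 between the immature subsets and 8 between Sirpa-negative mature and Sirpa-positive immature cells, where arrays left out gave 1 to 3 and 3 to 5. In the main fit 1664 and 3976 of 24148 genes passed for Sirpa-positive and Sirpa-negative maturation. With dim probes kept, 37208 genes were tested, and the calls were 432 and 1618 for these comparisons. They were 1557 and 578 for the immature and mature subsets. For Sirpa-positive mature against Sirpa-negative immature cells they were 2943, and for Sirpa-negative mature against Sirpa-positive immature cells 2775. In the same order, leaving out an array gave 394 to 1544, 1790 to 3661, 1232 to 2771, 637 to 1264, 3207 to 5031 and 2404 to 4347. The slide row as a block gave 1062 for Sirpa-positive maturation, and the compared arrays alone 2047 for Sirpa-negative maturation. For the difference between the maturation effects, 168 genes passed with normexp correction, 148 with the authors' values and 186 with trended variances. With probes above background on all arrays 101 of 18990 tested genes passed, with the mean of a gene's probes 4 and with median scaling 1.

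Differences that did not pass changed sign in 51 cases, with adjusted p from 0.555 to 0.9999. For the mature subsets, Socs2 was 0.12 with normexp, 0.083 with quantile normalization, 0.060 with median scaling, 0.094 with the authors' values, 0.069 with the mean of its probes, 0.016 with outlier spots kept and -0.32 to 0.30 with an array left out. Stat3 there was 0.087, 0.070, 0.042 and 0.042 with the first 4 settings, Stat5b 0.063, 0.013, 0.0049 and 0.061 with them and 0.024 with the mean of its probes, and Stat5a 0.011, 0.023 and 0.047 with the first 3 and 0.0027 with outlier spots kept. Arrays left out gave -0.14 to 0.085 for Stat3, -0.27 to 0.14 for Stat5b, -0.29 to 0.24 for Stat5a, -0.70 to 0.27 for Stat4 and -0.87 to 0.92 for Socs1. For the immature subsets, Stat3 was 0.089, 0.088, 0.0054 and 0.092 with those 4 settings and -0.18 to 0.077 with arrays left out, and Stat5b -0.021 to 0.23. The difference between the maturation effects of Stat3 was -0.0029 with normexp, -0.018 with quantile normalization, -0.049 with the authors' values and -0.11 to 0.16 with arrays left out, of Jak2 -0.49 to 0.10 and of Stat5b -0.37 to 0.033. Socs1 ran from -0.65 to 0.97 for Sirpa-positive maturation, and between Sirpa-negative mature and Sirpa-positive immature cells it was -0.039 with median scaling and -0.76 to 1.03 with arrays left out.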
